A study of Mus musculus with 36 samples.

Results

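Acer1 and 9 other enzymes and carriers of skin barrier lipids were followed in cells labelled neural fraction, taken from the stroma of oral tumours grown in mice. The genes are Acer1, Alox12b, Aloxe3, Cyp4f39, Sult2b1, Pla2g4f, Aldh3b2, Abca12, Rdh12 and Psapl1. They were listed by name, found through the platform annotation of the arrays and chosen by their measured values: several fall on a palmitate diet in every experiment. All 10 were measured, by 13 probe sets, and all 10 were among the 12823 of 17097 genes above the filter on low values, which left out means under 5.19 log2. The probe set with the highest mean stood for its gene.

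The outermost layer of the epidermis is sealed by lamellae of ceramides, cholesterol and free fatty acids. Suprabasal keratinocytes make ceramides with very long omega-hydroxylated acyl chains that carry an ester of linoleic acid. Lipoxygenases oxidise that linoleate, which lets the lipid be attached to the proteins of the cornified envelope, while transporters load precursors into lamellar bodies. Ceramidases release sphingosine from ceramides, and sulfotransferases make cholesterol sulfate, a regulator of barrier formation. Inherited loss of several of these genes causes ichthyosis in humans.

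The study holds 36 mouse arrays in 11 groups from 3 experiments. Human oral carcinoma cells were grown orthotopically in immunodeficient NSG (NOD-SCIDγ) mice, and stromal RNA of the mouse was measured. The first VDH15 experiment compared control, palmitate-rich and oleate-rich diets in tumours with the non-targeting PLKO shRNA, at 4 arrays a group. In SCC25, and in a second experiment with VDH15, tumours carrying either non-targeting shRNA or shCD36 were paired with a control or a palmitate-rich diet, at 3 arrays a group. SCC25 and VDH15 are both labelled oral carcinoma cell lines, and shCD36 silences the fatty acid receptor CD36 in these human cells, so mouse Cd36 does not check the labels. Each group is 1 labelled biological replicate, and its arrays are labelled technical replicates. A standard deviation below is therefore over arrays, and its n is a number of arrays. Whether 1 mouse or a pool stands behind a group's arrays is not given in the labels used here, nor are ages. The number of labelled biological replicates, at 1 a group, limits the precision of the tests. Each hybridisation batch is 1 experiment, and 2 scan batches divide the first VDH15 experiment.

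Values are the authors' deposited log2 intensities, so a difference of 1 is a doubling. Array medians lay between 5.98 and 6.04 log2. The values of non-targeting palmitate tumours were uneven. On the first principal component, with 38.7% of the variance, replicates 1 and 2 of that group in the first VDH15 experiment scored 81.3 and 75.1, and replicate 1 in the second VDH15 experiment scored 60.6. The last of these arrays had a lowest value of -0.17 log2, while no other array went below 2.10. Many counts and differences are given with and without these 3 arrays, and the others are over all arrays. Keratinocyte markers were well measured in this labelled neural fraction, with Krt14 at a mean of 12.6 log2 and Krt5 at 12.6. Of 8 markers of Schwann cells and glia 5 were measured, S100b (4.87) and Foxd3 (4.38) lay under the filter, and Sox10 stood at 6.85 log2.

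RefSeq promoter windows of build GRCm38.p6, from 250 bases before to 50 bases after the gene start, were found for 8 of the 10 genes, in 9 windows because Sult2b1 has 2. The windows of Acer1, Alox12b, Psapl1 and the downstream Sult2b1 start are shown because the genes moved together, and because these windows differ in the motif letters they hold. Capitals mark matches, read 5′ to 3′ on the gene's strand.

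Acer1, chr17:56982077-56982376, minus strand: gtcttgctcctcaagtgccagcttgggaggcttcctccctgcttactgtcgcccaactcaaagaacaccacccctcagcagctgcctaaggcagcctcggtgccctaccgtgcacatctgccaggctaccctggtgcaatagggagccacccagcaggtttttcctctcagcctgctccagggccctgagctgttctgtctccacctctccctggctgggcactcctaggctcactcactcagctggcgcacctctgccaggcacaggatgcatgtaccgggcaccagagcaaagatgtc

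Alox12b, chr11:69156822-69157121, plus strand: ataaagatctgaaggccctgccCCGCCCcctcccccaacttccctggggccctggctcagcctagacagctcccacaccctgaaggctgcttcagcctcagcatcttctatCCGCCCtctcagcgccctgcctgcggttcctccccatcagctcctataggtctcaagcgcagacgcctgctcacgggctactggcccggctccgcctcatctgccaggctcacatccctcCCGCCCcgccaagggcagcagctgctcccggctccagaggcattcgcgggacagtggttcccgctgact

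Psapl1, chr5:36203771-36204070, plus strand: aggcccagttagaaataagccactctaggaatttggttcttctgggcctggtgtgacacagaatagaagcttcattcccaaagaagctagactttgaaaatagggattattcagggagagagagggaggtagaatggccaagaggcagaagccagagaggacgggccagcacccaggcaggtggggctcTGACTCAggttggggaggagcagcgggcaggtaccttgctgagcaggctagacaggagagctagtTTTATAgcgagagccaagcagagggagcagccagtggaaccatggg

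Sult2b1, chr7:45742429-45742728, minus strand: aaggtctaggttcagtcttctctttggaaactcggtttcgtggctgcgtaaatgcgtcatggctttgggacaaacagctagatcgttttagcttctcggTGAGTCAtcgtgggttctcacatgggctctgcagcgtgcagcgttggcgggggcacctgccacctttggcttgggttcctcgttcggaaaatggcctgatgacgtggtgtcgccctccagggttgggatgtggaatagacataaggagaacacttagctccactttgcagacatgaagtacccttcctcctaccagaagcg

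Both strands were searched for 6 short motifs, and none was common to the group. The AP-1 letters TGANTCA occurred in 2 of the 9 windows, those of Psapl1 and of the downstream Sult2b1 start, against 7.81% of all 32851 windows. GC box letters (GGGCGG) occurred 3 times in the window of Alox12b and in no other of the 9, while 35.7% of all windows hold them. The C/EBP letters TTGCNNAA occurred in 1 of the 9 windows, that of Rdh12, against 10.8% of all. TATA box letters (TATAAA) occurred in 1, that of Psapl1, overlapping no other match and lying after the start, against 13.6%. Grainyhead-like letters (AACNGGTT), held by 2.09% of all windows, occurred in none of the 9. The same was true of the E-box (CACGTG), held by 7.15%. The Acer1 window held none of these letters. Its GC content was 61%, with 66% in Alox12b and a median of 52.7% over all windows. A match is a description of letters and not of binding.

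Acer1, the alkaline ceramidase of differentiated keratinocytes, had the largest estimated fall of the group on palmitate in the fit over all 3 experiments, though not in each experiment. In the first VDH15 experiment its 4 control arrays read 7.97, 7.60, 7.43 and 8.00 log2, and the 4 palmitate arrays 4.59, 4.51, 4.66 and 4.97. In the SCC25 non-targeting tumours the control arrays read 7.83, 7.70 and 7.62 log2, and the palmitate arrays 4.31, 4.84 and 4.83. In the second VDH15 experiment the non-targeting control arrays read 7.58, 7.19 and 7.29 log2, and the palmitate arrays 2.54, 6.60 and 6.27. The palmitate arrays were below every control array in each experiment, by about 3 log2 in the first 2 experiments and unevenly in the third, where replicate 1 was far lower than the other arrays of its group. On that array only 0.082% of all probe sets had a value below that of Acer1, against 54.4% and 59.7% on the other arrays of the group.

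In shCD36 tumours Acer1 stood in a narrow band on both diets. The SCC25 shCD36 arrays read 7.29, 7.39 and 7.29 log2 on control diet and 7.44, 7.33 and 7.33 on palmitate. The second VDH15 shCD36 arrays read 7.08, 7.41 and 7.42 log2 on control diet and 7.22, 7.21 and 7.39 on palmitate. The diets overlapped within both experiments. The oleate arrays of the first VDH15 experiment read 6.31, 5.83, 5.33 and 7.01 log2, all below the control arrays and all above the palmitate arrays of that experiment, with the widest spread outside the second VDH15 palmitate group.

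Ranked by mean, Acer1 was highest in the control groups of the first VDH15 experiment (7.75 ± 0.28 log2, SD, n = 4 arrays) and of SCC25 non-targeting tumours (7.72 ± 0.11, n = 3), which overlap each other. The 5 groups below them ran from 7.37 ± 0.06 (SCC25 shCD36 on palmitate) to 7.27 ± 0.10 log2 (second VDH15 shCD36 on palmitate), and neighbours among them overlap. Oleate followed at 6.12 ± 0.71 log2 (n = 4), clear of the groups above it. The 3 non-targeting palmitate groups came last, at 5.13 ± 2.25 (second VDH15), 4.68 ± 0.20 (first VDH15) and 4.66 ± 0.31 log2 (SCC25). Each of them overlaps its neighbour, oleate included. Ranks across experiments assume that the deposited values are comparable between experiments, which was not tested. The second Acer1 probe set fell by 1.77 log2 on palmitate in non-targeting tumours, against 2.78 for the first.

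**Figure D1:**
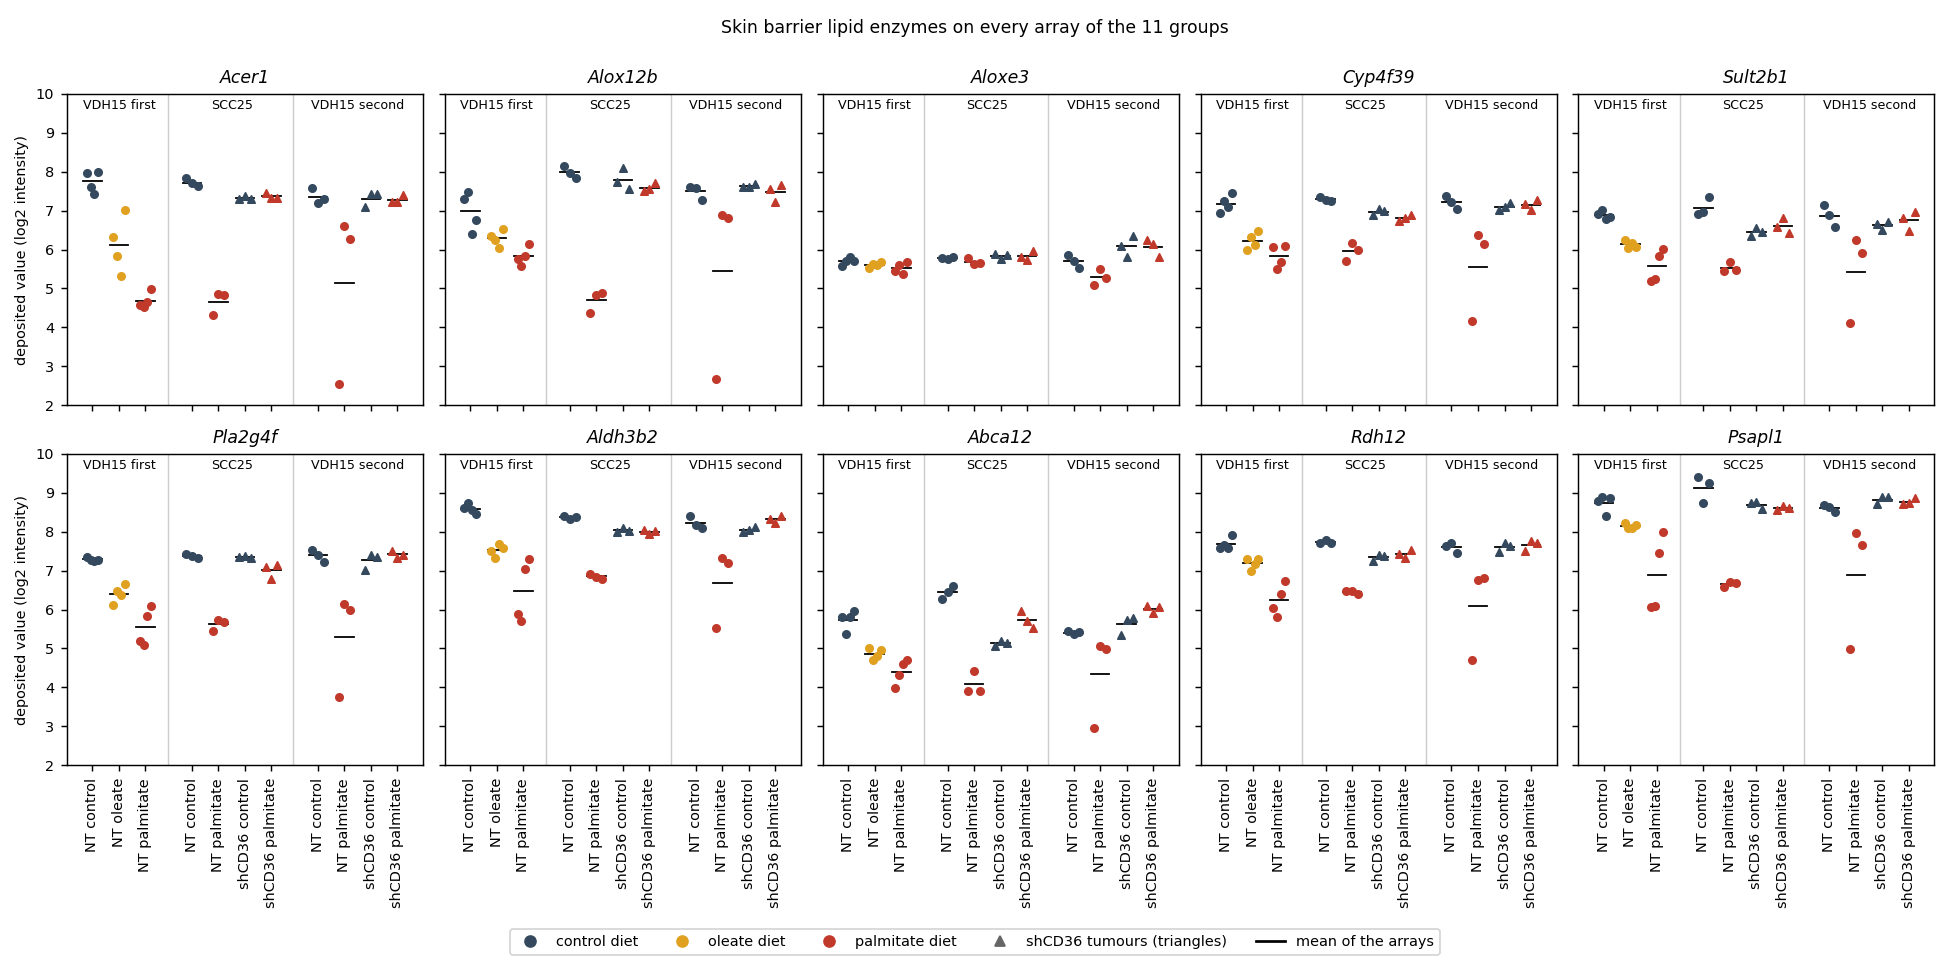
Deposited log2 intensity (y axis) of the 10 genes on each of the 36 arrays, by group (x axis) and experiment (vertical lines). Points are arrays, black bars are group means and triangles are shCD36 tumours. Non-targeting palmitate arrays (red circles) are lowest in most panels, with Acer1 between 2.54 and 6.60 log2 against 7.08 to 7.44 in shCD36 tumours on either diet, and Aloxe3 stays between 5.09 and 6.35 throughout.

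Since this comparison chose the genes, the palmitate change in non-targeting tumours is given as a description, without a test. The fall of Acer1 was 2.78 ± 0.17 log2 (SE, n = 3 experiments), of Alox12b 2.16 ± 0.35 and of Psapl1 2.01 ± 0.15, while Pla2g4f changed by -1.86 ± 0.14. Aldh3b2 fell by 1.72 ± 0.15 log2, Abca12 by 1.60 ± 0.28, Cyp4f39 by 1.45 ± 0.14, Sult2b1 by 1.43 ± 0.10 and Rdh12 by 1.41 ± 0.13. Aloxe3 differed by -0.23 ± 0.13 log2. The median over the 10 genes was -1.66 log2, against -0.03 over all genes tested, and was -1.29 log2 without the 3 arrays that stood apart. In that smaller fit the estimate was -2.30 ± 0.41 log2 for Acer1 and -1.42 ± 0.29 for Psapl1. For 9 of the 10 the fit's adjusted p was under 0.05, and for 7 without the 3 arrays, when Alox12b and Abca12 no longer were. Of all genes tested 3.27% were lower by that rule. Without the 3 arrays 599 of all genes tested were called, 293 of them higher. Since the choice of genes fixed the counts of the 10, nothing is read from them. Within single experiments the palmitate arrays were all below the control arrays for 9 genes in the first VDH15 experiment (23.1% of all genes), 9 in SCC25 (19.7%) and 10 in the second VDH15 experiment (17.1%). Aloxe3 was the exception in the first 2.

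The lipoxygenases did not share a size of change. Alox12b makes the hydroperoxide of the linoleate ester, and Aloxe3, its neighbour in the RefSeq annotation, converts that product. For Alox12b the SCC25 non-targeting arrays read 8.16, 7.96 and 7.82 log2 on control diet and 4.36, 4.83 and 4.88 on palmitate, a difference of -3.29 log2. In the first VDH15 experiment its control arrays read 7.30, 7.47, 6.41 and 6.75 log2 and its palmitate arrays 5.77, 5.58, 5.83 and 6.14, a difference of -1.15. The second VDH15 non-targeting arrays read 7.61, 7.58 and 7.28 log2 on control diet, and 2.67, 6.89 and 6.81 on palmitate. The fall of Alox12b was thus larger in SCC25 than in the first VDH15 experiment, whose control arrays were themselves spread over about 1 log2. The difference between experiments was not tested.

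Aloxe3 was flatter. Its non-targeting arrays in SCC25 read 5.79, 5.76 and 5.81 log2 on control diet and 5.78, 5.63 and 5.65 on palmitate, which overlap. In the second VDH15 experiment the non-targeting arrays read 5.86, 5.70 and 5.52 log2 on control diet and 5.09, 5.50 and 5.26 on palmitate, which do not overlap. Over the 36 arrays, centred on the mean of their experiment, the Pearson r of Aloxe3 with Alox12b was 0.54, the lowest of the 45 pairs of genes.

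The enzymes that build and load acylceramides were lower on palmitate in all 3 experiments, and 1 array carried much of the difference in the second VDH15 experiment. Cyp4f39, the mouse counterpart of the human omega-hydroxylase of very long acyl chains CYP4F22, changed by -1.35 log2 in the first VDH15 experiment, -1.35 in SCC25 and -1.65 in the second VDH15 experiment, where it was -0.96 without replicate 1. Abca12, the lamellar body lipid transporter, differed most in SCC25. Its SCC25 non-targeting arrays read 6.28, 6.44 and 6.61 log2 on control diet and 3.92, 4.41 and 3.90 on palmitate, a difference of -2.37. In the first VDH15 experiment the difference was -1.34 log2 and in the second -1.08, or -0.39 without replicate 1. The mean of Abca12 over all arrays, 5.23 log2, lay only just above the filter. Aldh3b2, an aldehyde dehydrogenase of long-chain fatty aldehydes, changed by -2.10, -1.53 and -1.53 log2 in the first VDH15, the SCC25 and the second VDH15 experiment. Without the arrays that stood apart the first was -1.41 and the last -0.96.

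Sult2b1, the cholesterol sulfotransferase, changed by -1.31, -1.54 and -1.45 log2 in the same order. Without the arrays that stood apart the first was -0.96 and the last -0.80. Pla2g4f, a cytosolic phospholipase A2, had control arrays of non-targeting tumours between 7.22 and 7.54 log2 in all 3 experiments. Its palmitate arrays read 5.20, 5.09, 5.84 and 6.10 in the first VDH15 experiment, 5.45, 5.73 and 5.69 in SCC25, and 3.76, 6.14 and 5.98 in the second VDH15 experiment. No palmitate array reached the lowest control array. Rdh12, a retinal reductase best known from photoreceptors, changed by -1.43, -1.28 and -1.51 log2. Its first value was -1.11 and its last -0.82 without the arrays that stood apart. Its second probe set fell by 0.97 log2 over the experiments.

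Psapl1, a paralogue of the saposin precursor prosaposin, is represented by a probe set whose name has a suffix marking probes shared with other transcripts. Its SCC25 non-targeting arrays read 9.40, 8.73 and 9.24 log2 on control diet and 6.59, 6.70 and 6.69 on palmitate. In the first VDH15 experiment the control arrays read 8.78, 8.89, 8.41 and 8.87 log2 and the palmitate arrays 6.07, 6.09, 7.45 and 7.99. The lower pair there are replicates 1 and 2, which also stood apart on the first principal component. Leaving them out, the difference in that experiment was -1.02 log2 in place of -1.83. In the second VDH15 experiment it was -0.79 log2 without replicate 1 of the palmitate group, in place of -1.73. The second Psapl1 probe set fell by 1.20 log2 on palmitate.

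On the oleate diet all 10 genes had lower means than on control, and none passed the test. Only 1 labelled biological replicate received oleate, so the error of this comparison is borrowed from the other groups, and its control arrays are among those that chose the genes. The limma estimates were -1.49 log2 for Acer1 (95% interval -2.11 to -0.87), -1.20 for Alox12b (-2.51 to 0.12), -1.01 for Cyp4f39 (-1.52 to -0.49) and -0.99 for Abca12 (-2.06 to 0.08). Pla2g4f stood at -0.95 log2 (-1.46 to -0.43), Aldh3b2 at -0.87 (-1.43 to -0.32), Sult2b1 at -0.80 (-1.17 to -0.44) and Psapl1 at -0.68 (-1.25 to -0.10). Rdh12 at -0.48 log2 (-0.97 to 0.01) and Aloxe3 at -0.12 (-0.62 to 0.38) were nearest to 0. Their median was -0.91 log2. The widths of these intervals depended on the 3 arrays that stood apart. In the fit without those arrays Acer1 was at -1.32 log2, with an SE of 0.65 in place of 0.26. Psapl1 was at -0.79 log2, with an SE of 0.46 in place of 0.24. For Cyp4f39 (0.15 in place of 0.21) and Aldh3b2 (0.19 in place of 0.23) the SE was smaller. The limma adjusted p was 1 for each gene, and 0% of all genes tested were called. An unadjusted p under 0.05 was found for 225, fewer than that threshold gives on average where no gene differs.

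Within the first VDH15 experiment the 4 oleate arrays were all below the 4 control arrays for 8 of the 10 genes, where 9.06% of all genes tested were lower in that way. The exceptions were Alox12b and Aloxe3. Psapl1 oleate arrays read 8.22, 8.10, 8.09 and 8.17 log2, against at least 8.41 on control. Aldh3b2 oleate arrays read 7.50, 7.32, 7.68 and 7.57 log2 against control arrays of 8.60, 8.73, 8.56 and 8.45. The median difference of the 10 genes was -0.80 log2 for oleate, against -1.39 for palmitate, both set against the same control arrays. Within the scan batches the oleate median was -0.77 in batch 2 and -0.79 in batch 3, and the palmitate median was -1.36 and -1.72 log2. The oleate means lay between those of control and palmitate for all 10 genes.

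Directly compared, palmitate was below oleate by a median of 0.88 log2 in the fit over all groups, and none of the 10 genes passed. The smallest limma adjusted p was 0.146, for Psapl1 at -1.33 log2, and 0.039% of all genes tested were called, while 1592 had an unadjusted p under 0.05. The estimate for Acer1 was -1.29 log2 (95% interval -1.92 to -0.67), and for Rdh12 -0.92 (-1.41 to -0.44). In the first VDH15 experiment the palmitate arrays were all below the oleate arrays for 7 of the 10 genes, with 20.5% of all genes in that position. Without replicates 1 and 2 of the palmitate group the median difference within that experiment was -0.34 log2 in place of -0.71. Acer1 then differed by -1.30 log2 and Aldh3b2 by -0.35.

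In shCD36 tumours no palmitate change of the group was detected. This comparison shares no array with the one that chose the genes. Of the 10 genes 5 had higher and 5 lower estimates, with a median of 0.00 log2, and none passed (limma adjusted p of 1.00 for each), where 0% of all genes tested were called and 282 had an unadjusted p under 0.05. The estimate for Acer1 was 0.01 ± 0.20 log2 (SE, n = 2 experiments, 95% interval -0.48 to 0.49). In the fit without the arrays that stood apart its SE was 0.50 log2. The fall of Acer1 in non-targeting tumours belongs to the contrast that chose the genes, so this interval is not set against it. The intervals were -1.19 to 0.84 log2 for Alox12b, -0.49 to 0.30 for Pla2g4f, -0.51 to 0.38 for Psapl1 and -0.31 to 0.45 for Rdh12. Abca12 had the largest estimate, 0.50 ± 0.35 log2. Its SCC25 shCD36 arrays read 5.07, 5.20 and 5.14 log2 on control diet and 5.97, 5.72 and 5.52 on palmitate. In the second VDH15 experiment they read 5.35, 5.74 and 5.79 on control diet and 6.09, 5.90 and 6.07 on palmitate. Every palmitate array of Abca12 was above every control array in both experiments. In SCC25 the palmitate arrays were all lower for 2 genes, Cyp4f39 at -0.17 and Pla2g4f at -0.34 log2, and all higher for 1, against 8.13% and 14.6% of all genes tested. The second VDH15 experiment had 2 genes with all palmitate arrays higher, Abca12 and Aldh3b2 (0.27 log2), against 8.03%.

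On control diet, the differences between shCD36 and non-targeting tumours did not pass the test for any of the 10 genes. The median estimate was -0.20 log2 (limma adjusted p of 0.991 or more), 0% of all genes tested were called, and 435 had an unadjusted p under 0.05. In SCC25 the shCD36 arrays were nevertheless all below the non-targeting arrays for 6 of the 10 genes, among 18% of all genes. These were Abca12 at -1.31 log2, Sult2b1 at -0.62, Acer1 at -0.40, Rdh12 at -0.39, Aldh3b2 at -0.34 and Cyp4f39 at -0.32. Of the 10 genes none in the second VDH15 experiment was lower in every array, and Psapl1 was higher in all, by 0.22 log2, as were 10.2% of all genes. The non-targeting control arrays are among those that chose the genes.

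On the palmitate diet 7 of the 10 genes were higher in shCD36 than in non-targeting tumours by the test, where 0.234% of all genes tested were higher. The non-targeting palmitate arrays of this comparison are those whose low values chose the genes, so its direction was largely fixed by the choice and the count is not independent evidence. Acer1 was 5.64-fold higher, by 2.50 ± 0.19 log2 (SE, n = 2 experiments, limma adjusted p = 0.0262). Psapl1 was higher by 1.88 ± 0.18 log2 (adjusted p = 0.0283), Pla2g4f by 1.72 ± 0.16 (0.0283) and Sult2b1 by 1.17 ± 0.11 (0.0283). Aldh3b2 (1.49 ± 0.17 log2), Rdh12 (1.28 ± 0.15) and Cyp4f39 (1.20 ± 0.16) also passed. Alox12b had a large estimate of 2.21 ± 0.41 log2 but an adjusted p of 0.0828. Abca12 at 1.61 ± 0.33 log2 (0.0937) and Aloxe3 at 0.45 ± 0.16 (0.201) did not pass either. The median of the 10 was 1.55 log2.

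These calls rested on 1 array. Without replicate 1 of the second VDH15 non-targeting palmitate group, 0 of the 10 passed limma, with a median of 1.29 log2 and a smallest adjusted p of 0.0659, for Pla2g4f. Without all 3 arrays that stood apart 0 passed, the median was 1.21 log2 and the smallest adjusted p was 0.0636. Of all genes tested 6 were then called, 1 of them higher. Each of the 10 estimates was still above 0 in that fit, from 0.40 log2 for Aloxe3 to 1.93 for Acer1. In SCC25, which holds none of the 3 arrays, the shCD36 palmitate arrays were all above the non-targeting ones for 9 genes, against 16.3% of all genes. In the second VDH15 experiment they were all above for 10 genes, against 20.5%, and for Acer1 the difference without replicate 1 was 0.84 log2 in place of 2.14. A fit of only the groups compared also called 0 of the 10, with a smallest adjusted p of 0.112.

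**Figure D2:**
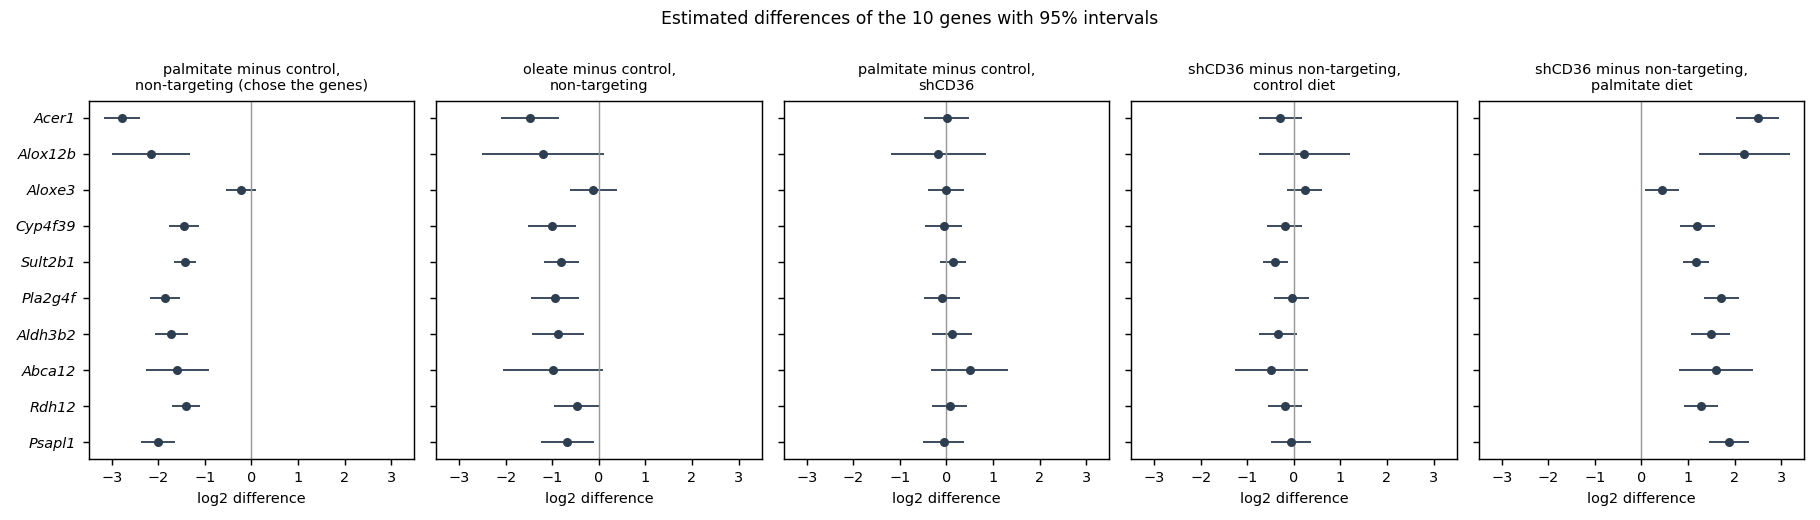
Estimated log2 difference (x axis) of each of the 10 genes (y axis) in 5 comparisons, from limma on 11 group averages. Points are estimates and lines are 95% intervals. Estimates on palmitate in shCD36 tumours lie between -0.18 and 0.50 log2, those on oleate between -1.49 and -0.12, and those of shCD36 over non-targeting on palmitate between 0.45 and 2.50.

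The difference of the palmitate effect between shCD36 and non-targeting tumours did not pass for any of the 10 genes. Its median was 1.80 log2, and the smallest limma adjusted p was 0.0516, for Acer1 (2.79 ± 0.26 log2) and Sult2b1 (1.58 ± 0.15). Of all genes tested 0% were called, and 2011 had an unadjusted p under 0.05. Aldh3b2 (1.84 ± 0.23 log2), Pla2g4f (1.76 ± 0.21) and Psapl1 (1.95 ± 0.24) had an adjusted p of 0.0659. Alox12b (1.98 ± 0.55) had 0.2, Abca12 (2.09 ± 0.45) 0.134 and Aloxe3 (0.21 ± 0.21) 0.674. With the 3 arrays that stood apart left out, the median was 1.37 log2 and the smallest limma adjusted p of the 10 was 0.0968. Acer1 was then at 2.31 ± 0.65 log2 (adjusted p = 0.195) and Sult2b1 at 1.24 ± 0.21 (0.119). This comparison too shares the arrays that chose the genes.

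Over the 36 arrays, centred on the mean of their experiment, the 45 pairs had a median Pearson r of 0.91, and the highest was 0.97 for Pla2g4f with Rdh12. These points share the groups, so the palmitate difference itself enters them. Centred on group means, the median was 0.86 and the highest was 0.94, for Aldh3b2 with Psapl1. That figure rested on the 3 arrays that stood apart: over the other 33 arrays the group-centred median was 0.31, while the experiment-centred median was 0.87. The lowest pair on the 36 group-centred arrays was Aloxe3 with Abca12, at r = 0.26. Over the other 33 arrays the lowest group-centred pair was instead Alox12b with Abca12, at -0.12. Centred on experiments, the lowest pair over those 33 arrays was Alox12b with Aloxe3, at 0.29.

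**Figure D3:**
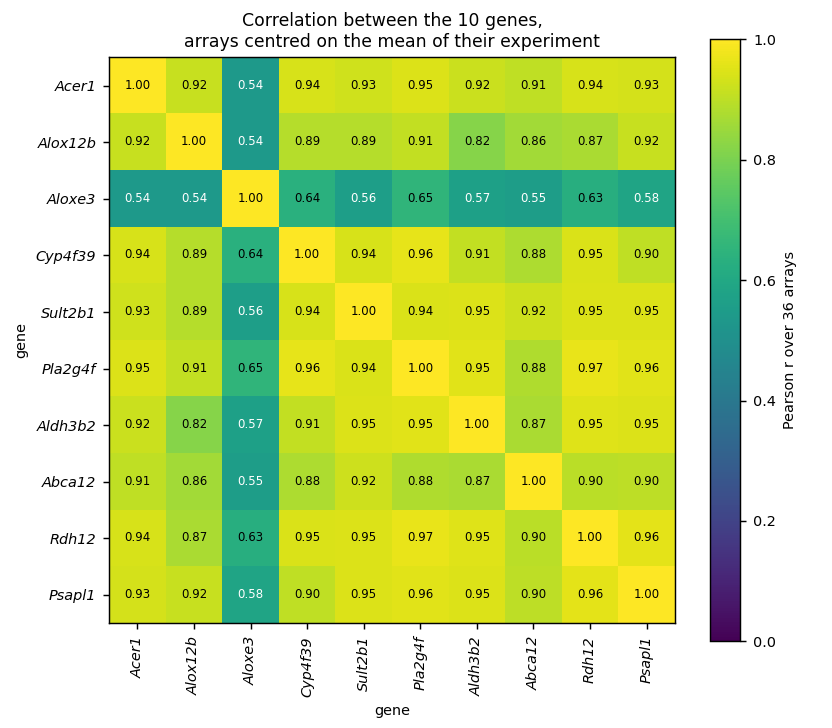
Pearson r between each pair of the 10 genes (both axes) over 36 arrays centred on the mean of their experiment, with the value written in each cell and in colour from 0 to 1. The row of Aloxe3 is the darkest, with 0.54 against Alox12b, and Pla2g4f with Rdh12 reaches 0.97.

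The genes most like Acer1 by the same correlation, among 12822 others, were Selenbp2 (r = 0.975), a selenium-binding protein, Ankrd35 (0.964), Homer2 (0.958), Pla2g4f (0.948), the epidermal transglutaminase Tgm3 (0.941), Rdh12 (0.940), Cyp4f39 (0.939), Ptgr1 (0.936), the desmosome-associated periplakin Ppl (0.936) and the glycolipid transfer protein Gltp (0.936). Genes with only a predicted name were left out of this ranking's top 10. Of these 10, 3 are themselves on the list of barrier lipid enzymes. The palmitate difference that chose the listed genes enters this correlation, so their places were largely fixed by the choice. Psapl1 ranked at place 12 of all genes, Sult2b1 at 15, Aldh3b2 at 25, Alox12b at 28 and Abca12 at 33, while Aloxe3 ranked at 1611. Without the 3 arrays Ankrd35, Selenbp2 and Homer2 held the first 3 places, Pla2g4f stood at place 14, Rdh12 at 11, Cyp4f39 at 15 and Aloxe3 at 2742. On oleate, Selenbp2 stood at -0.77 ± 0.16 log2 and Tgm3 at -1.17 ± 0.24, beside -1.49 for Acer1, and neither passed. Homer2 stood at 0.17 ± 0.14 log2 for palmitate in shCD36 tumours, without passing.

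Beside the 10 genes, 8 lists of related lipid and differentiation genes hold 132 other genes, of which 114 were measured and 96 tested. On palmitate in non-targeting tumours 16 of these 96 fell and 3 rose, with a median of -0.08 log2, where 3.27% of all genes tested were lower and 3.65% higher. Without the 3 arrays that stood apart 13 fell and 2 rose. In ceramide synthesis 3 of 15 genes fell, the elongase Elovl4 (-1.88 ± 0.26 log2, limma adjusted p = 0.0192) and the ceramide synthases Cers3 (-1.40 ± 0.20) and Cers4 (-0.60 ± 0.14). Without the 3 arrays Cers3 (-1.03 ± 0.14) and Elovl7 (-0.41 ± 0.09) passed, while Elovl4 (-1.57 ± 0.37, adjusted p = 0.0605) and Cers4 (-0.54 ± 0.14) did not. Elovl4 and Cers3 both act in making skin ceramides with very long acyl chains. The elongase Elovl7 stood at -0.67 ± 0.15 log2 with an adjusted p of 0.0508. The median of the 15 was -0.20 log2.

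Of 17 ceramide turnover genes 3 passed. The ceramidase Acer2 (0.57 ± 0.10 log2, adjusted p = 0.0288) and the sphingosine kinase Sphk1 (0.81 ± 0.17) rose, and Sphk2 (-0.55 ± 0.07) fell. Without the 3 arrays 1 rose, Acer2, and 2 fell, Sphk2 and Sgpp1 (-0.56 ± 0.12). The sphingosine phosphate phosphatase Sgpp1 stood at -0.62 ± 0.14 log2 without passing. Acer2, a paralogue of Acer1, thus moved opposite to it on palmitate, and its oleate estimate was 0.46 ± 0.16 log2, which did not pass. The median of the list was -0.02 log2.

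In the list of acylceramide, lipoxygenase and lipid envelope genes 2 of 10 fell, the transglutaminases Tgm3 (-1.88 ± 0.15 log2, adjusted p = 0.00628) and Tgm1 (-0.97 ± 0.18). Both cross-link cornified envelope proteins. Tgm5 (-0.53 ± 0.15) and the lipase co-activator Abhd5 (-0.35 ± 0.11) did not pass. Tgm3 was higher in shCD36 than in non-targeting tumours on palmitate, by 1.80 ± 0.18 log2 (adjusted p = 0.0283), a call lost without the 3 arrays (1.30 ± 0.36, adjusted p = 0.147). Its fall on palmitate in non-targeting tumours was then -1.35 ± 0.31 log2 (adjusted p = 0.0562) and also did not pass.

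Among 10 phospholipases and lipases the phospholipase Pla2g4e (-1.28 ± 0.17 log2) fell, though without the 3 arrays it did not pass (-0.93 ± 0.24, adjusted p = 0.0756), while Plb1 (-0.79 ± 0.18), Liph (-0.51 ± 0.13) and the prostaglandin synthase Ptgs2 (0.32 ± 0.13) did not pass. Among 8 genes of fatty alcohols, aldehydes and omega-hydroxylation the aldehyde dehydrogenase Aldh3a1 (-1.40 ± 0.23 log2) fell, and Far2 stood at -0.97 ± 0.38. Of 14 retinoid genes the retinoic acid carrier Crabp2 (-1.20 ± 0.18 log2) and the receptor Rarg (-0.52 ± 0.10) fell, and without the 3 arrays only 1 of the 14 fell. The retinaldehyde dehydrogenase Aldh1a2 had 0.96 ± 0.31 without passing. On oleate Aldh1a2 stood at -1.56 ± 0.49 log2, also without passing. Of 5 sterol and lipid transport genes the lipoprotein receptor Scarb1 (0.60 ± 0.09 log2) rose and the transporter Abca7 (-0.34 ± 0.06) fell.

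Of 17 regulators of epidermal differentiation 5 fell on palmitate, Grhl3 (-1.21 ± 0.14 log2), Zfp750 (-0.98 ± 0.13), Grhl1 (-0.86 ± 0.13), Ovol1 (-0.66) and Cebpa (-0.58 ± 0.06, limma adjusted p = 0.0146). Their median was -0.31 log2 over the 17. Ovol1 is beyond the rule for naming and was added to complete the 5. Cebpa was higher in shCD36 than in non-targeting tumours on palmitate, by 0.57 ± 0.07 log2 (adjusted p = 0.0452). It and Tgm3 were the 2 of the 96 that passed there, and without the 3 arrays 0 passed, with Cebpa at 0.46 ± 0.08 (adjusted p = 0.0883). In shCD36 tumours on palmitate none of the 96 passed.

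**Figure D4:**
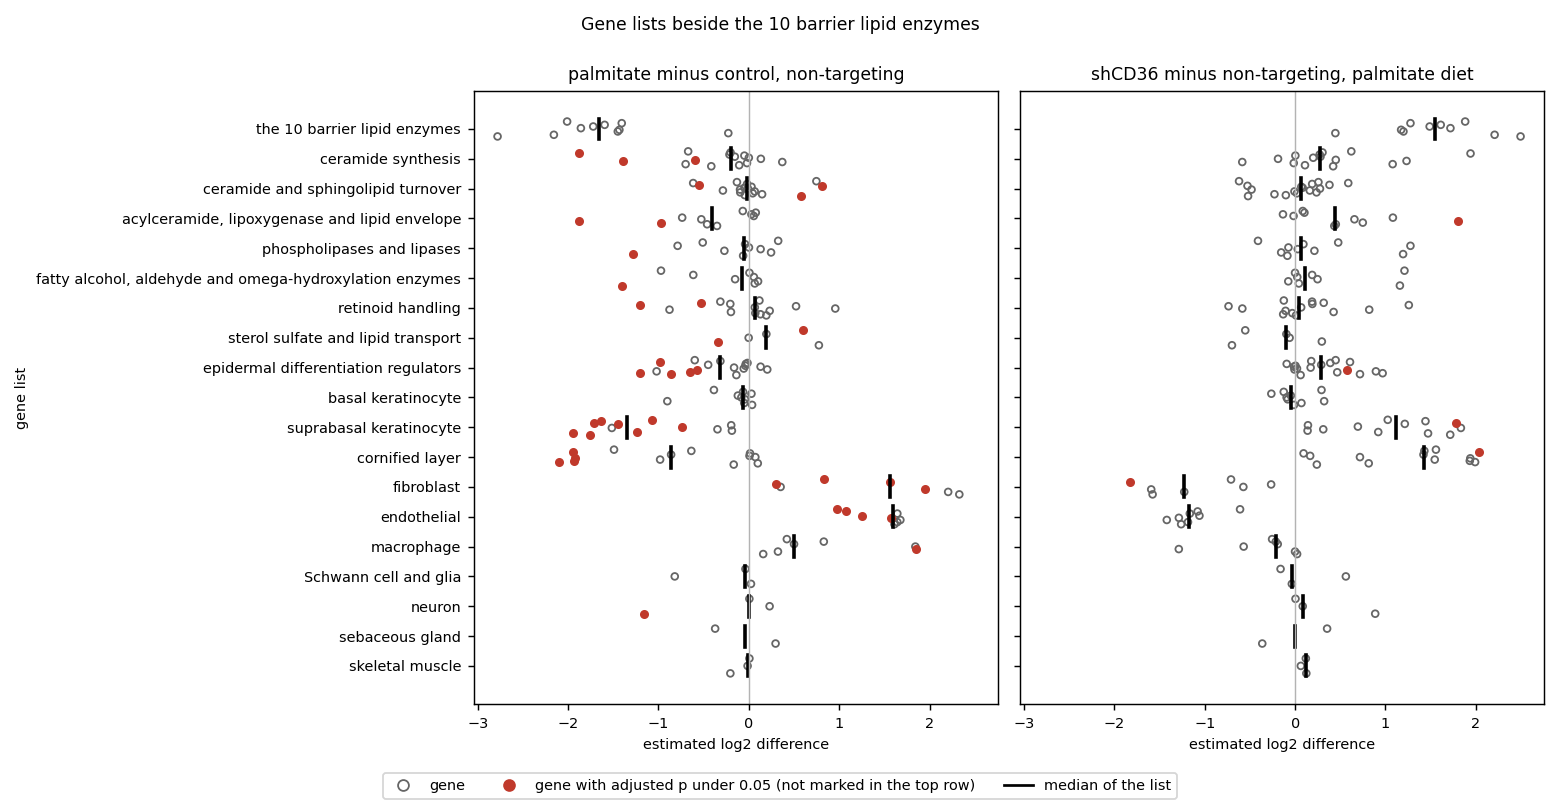
Estimated log2 difference (x axis) of each tested gene in the lists named on the y axis. The left panel compares palmitate with control diet in non-targeting tumours and the right panel shCD36 with non-targeting tumours on palmitate. Open circles are genes, filled circles genes with a limma adjusted p under 0.05 and bars list medians. In the top row, that of the 10 genes, all circles are open whatever the adjusted p. The 10 genes have medians of -1.66 and 1.55 log2, suprabasal keratinocyte genes -1.34 and 1.12, and basal keratinocyte genes -0.06 and -0.05.

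Markers of other cells moved in the same contrast. Of 9 basal keratinocyte markers none passed on palmitate in non-targeting tumours, with a median of -0.06 log2 and Krt14 at -0.05 ± 0.08. Of 12 suprabasal markers 8 fell, with a median of -1.34 log2, among them Krtdap (-1.72 ± 0.18), Krt10 (-1.76) and Krt4 (-1.95), while the most abundant, Dsp (-0.19 ± 0.08) and Krt6a (-0.19 ± 0.08), did not pass. Of 13 cornified layer markers 4 fell, with a median of -0.86 log2, including Sprr1a (-2.11 ± 0.29). The late markers Flg (4.13 log2), Hrnr (3.93) and Casp14 (5.10) and the suprabasal keratin Krt1 (4.84) lay under the filter. Fibroblast markers rose in 4 of 7, with a median of 1.56 log2, and endothelial markers in 4 of 8, with a median of 1.59. Macrophage markers rose in 1 of 7, Mrc1 (1.85 ± 0.41 log2). None passed of 3 Schwann cell and glial, 2 sebaceous and 3 muscle markers, and of 3 neuronal ones Tubb3 (-1.16 ± 0.14 log2) fell. Without the 3 arrays that stood apart 5 of 12 suprabasal markers fell (median -0.82 log2) and 1 of 13 cornified layer markers did (-0.46), while 1 of 7 fibroblast (1.34) and 2 of 8 endothelial markers (1.36) rose. Of the 3 Schwann cell and glial markers 1 then fell, Erbb3 (-0.49 ± 0.10 log2), against -0.82 ± 0.23 without passing over all arrays. Among macrophage markers Lyz2 (2.02 ± 0.40) then passed in place of Mrc1 (1.61 ± 0.38).

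Summed over all measured markers, suprabasal levels lay between 14.47 and 15.08 log2 on the control arrays of non-targeting tumours, between 13.54 and 14.66 on palmitate and between 14.54 and 14.62 on oleate. In shCD36 tumours they lay between 14.48 and 14.55 log2 on control diet and between 14.51 and 14.61 on palmitate. The lowest sums were thus those of non-targeting palmitate arrays. Summed cornified layer markers ranged from 10.82 to 11.45 log2 on non-targeting control arrays, from 9.81 to 10.79 on palmitate, from 10.71 to 10.87 on oleate and from 11.06 to 12.05 in shCD36 tumours. Summed basal markers ranged from 14.59 to 14.92 log2 on non-targeting control arrays, from 14.17 to 14.79 on palmitate, from 14.84 to 14.90 on oleate and from 14.56 to 14.70 in shCD36 tumours. Summed fibroblast markers ranged from 12.78 to 14.01 log2 on non-targeting control arrays, from 14.18 to 15.95 on palmitate and from 13.45 to 13.69 on oleate. Summed endothelial markers ranged from 11.08 to 12.53 log2 on control, from 12.92 to 13.81 on palmitate and from 12.52 to 12.82 on oleate. The palmitate arrays were above all control arrays of non-targeting tumours for both of these lists. For the fibroblast list the oleate arrays lay within the control range. That range is pooled over all experiments, while oleate was given only in the first VDH15 experiment. In shCD36 tumours the fibroblast sums ranged from 14.06 to 15.01 log2 on control diet and from 13.17 to 14.71 on palmitate. The part of these cells in the result was not tested. In these mixed samples fewer cells of a type and less RNA per cell cannot be told apart.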

How the data were processed

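Gene expression was measured on 36 mouse Affymetrix arrays of tumour stroma. The authors' deposited values are log2 intensities from RMA (affy), as the submitters' processing notes name them, and RNA was amplified before labelling, per the labels' protocols. Terms for hybridisation batch, scan batch and cell line were fitted to the deposited values. They were below 1e-06 log2 for 100% of 45141 probe sets in a model that also held diet and shRNA, and in 0.00222% otherwise. The values thus carried no such differences once diet and shRNA were in that additive model. How this came about is not given in the sources used here. No adjustment was added beyond the experiment term of the model described below. No genome build is given in the sources used here, and raw intensities were not used.

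The platform annotation gave 1 gene for 28898 probe sets, several for 551 and none for 15692. The highest-mean probe set stood for each of 17097 genes, and the 25% with the lowest means were left out. Each of the 11 groups entered limma 3.58.1 (R 4.3.3) as the mean of its arrays, under a model of diet-by-shRNA condition plus experiment, leaving 4 residual and 2.70 prior degrees of freedom. Benjamini-Hochberg adjustment covered all 12823 genes of a contrast, with a threshold of 0.05. The spread is that between labelled biological replicates. The labels do not say that these came from separate mice. The fit was tested on simulated data. Array numbers did not pair arrays across groups.

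The genes, lists and tests were chosen with earlier results of these data known. Named are all 10 genes, up to 4 genes of each lipid or regulator list with the smallest unadjusted p on palmitate and up to 2 in other contrasts, the 10 genes most correlated with Acer1, and up to 3 markers per cell type by mean level, with others where a count needed them. The marker lists were of basal and suprabasal keratinocytes, cornified layer, fibroblasts, endothelium, macrophages, Schwann cells and glia, neurons, sebaceous gland and skeletal muscle. Alternatives were the mean of all probe sets, no filter, other blocks, the contrast's groups alone, leaving out experiments or arrays, other scalings and values within scan batches. Promoter sequences are from RefSeq, GRCm38.p6, searched in Python 3.11.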

Additional observations from a re-analysis of the deposited data

Results flagged for a closer look

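In 3 cases all palmitate arrays of a gene moved one way against control in non-targeting tumours and all moved the other way in shCD36 tumours of the same experiment. Abca12 did so in SCC25, with -2.37 log2 in non-targeting and 0.60 log2 in shCD36 tumours, and in the second VDH15 experiment, with -1.08 and 0.40 log2. Aldh3b2 did so in the second VDH15 experiment, with -1.53 log2 in non-targeting and 0.27 log2 in shCD36 tumours. Without replicate 1 of the second VDH15 non-targeting palmitate group these non-targeting values were -0.39 log2 for Abca12 and -0.96 for Aldh3b2. The difference was not tested within a single experiment. Over both experiments limma gave an adjusted p of 0.134 for Abca12 and 0.0659 for Aldh3b2. These were 0.211 and 0.0968 without the 3 arrays that stood apart. The non-targeting value of each pair belongs to the contrast that chose the genes. No array of the 10 genes stood out by Dixon's criterion in the 3 groups of 4 arrays, the only ones large enough, which gives 30 checks over the genes. So replicate 1 of the second VDH15 non-targeting palmitate group, in a group of 3, was outside that check.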

How the results depend on the processing

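The median palmitate change of the 10 genes in non-targeting tumours was -1.66 log2. It lay between -1.77 and -1.45 when each array was left out in turn. It lay between -1.78 and -1.55 when a whole experiment, 1 labelled biological replicate of each of its conditions, was left out in turn. Without the 3 arrays that stood apart it was -1.29. Within scan batch 3 of the first VDH15 experiment it was -1.72 log2, against -1.39 over both batches, and palmitate minus oleate was -0.88 against -0.71. The 7 calls of shCD36 over non-targeting on palmitate became 0 with only the groups compared, without the SCC25 experiment, without the second VDH15 experiment and without the 3 arrays, and ranged from 0 to 8 over all fits that left out an experiment or an array. Without either of these experiments a single experiment holds shCD36 tumours, so the fit has fewer degrees of freedom. Of all single arrays only replicate 1 of the second VDH15 non-targeting palmitate group brought the count to 0. The interaction of palmitate with shRNA, 0 calls, had 8 with no replicate block, 9 with the array number as replicate block, 8 with duplicateCorrelation and 0 to 3 when experiments or arrays were left out. Palmitate over oleate, 0 calls, had 6 with no replicate block, 5 with the array number as replicate block and 0 to 1 when experiments or arrays were left out. Array numbers did not pair arrays, with a median correlation of same-numbered deviations of 0.03, 0.03 and -0.05 in the 3 experiments. These fits count arrays labelled technical replicates as samples or leave the experiment out, and the cause of the added calls was not tested. The share of all genes called in the same fits is not given here, so nothing about the 10 genes is read from these counts. Oleate over control, the shRNA comparison on control diet and palmitate in shCD36 tumours had 0 calls among the 10 genes under every alternative that could be fitted. The oleate comparisons could not be fitted with their groups alone or without the first VDH15 experiment. The falls of the 10 genes on palmitate in non-targeting tumours and their differences between shRNAs on palmitate kept their direction in these fits. Estimates near 0 did not: on control diet Abca12 went from -0.48 to 0.15 log2 in shCD36 over non-targeting tumours without SCC25, and Acer1 on palmitate in shCD36 tumours lay between -0.05 and 0.04 log2 over the fits that left out an array. The correlations and list genes without the 3 arrays were added after seeing the data.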
